A study of Mus musculus with 12 samples.

Results

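The Slc25 family encodes the carriers that move nucleotides, phosphate, organic acids, amino acids and cofactors across the inner mitochondrial membrane. Its members were taken by name: every protein-coding gene whose symbol begins with Slc25a and a number, after the transcripts of the deposited table were matched to GRCm38 gene symbols and their FPKM (fragments per kilobase of transcript, scaled to the mapped fragments of the library) were summed per gene and library. This gave 47 members among 21774 protein-coding genes. Of these, 40 had 3 or more libraries with an FPKM of 1 or above and entered the test, and 7 did not.

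The mice were C57BL/6 with colitis-associated colon cancer, and their 12 libraries form 4 groups of 3: adjacent tissue and tumours of control mice with a floxed Synbindin allele (flox), and adjacent tissue and tumours of mice that had lost Synbindin in intestinal epithelial cells (ΔIEC). The series title names scraped colon epithelium, whereas the protocol describes dissected tumours and adjacent tissue. Trappc4 encodes Synbindin, which belongs to complexes that tether vesicles. The labels used here name neither the Cre driver nor the age of the mice, and they do not say whether replicates are separate animals, so a p-value here reflects only how these libraries vary, which may be technical. Libraries are named by genotype (F for flox, D for ΔIEC), tissue (A for adjacent, T for tumour) and replicate number, such as FA1, and values per library are given in the order of replicates 1, 2 and 3.

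A typical carrier is built from repeated pairs of membrane-spanning helices around a central binding site, and it exchanges one small molecule against another. Adenine nucleotide translocases hand ATP made in the matrix to the cytosol in exchange for ADP, and the phosphate carrier returns the phosphate needed to make more. Other members feed the citric acid cycle, bring acylcarnitines in for fatty acid oxidation, or pass cofactors, iron and glutathione. Colon epithelium draws much of its energy from the mitochondrial oxidation of short-chain fatty acids.

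As a check of the labels, Trappc4 in adjacent tissue had a mean FPKM of 17.0 ± 0.285 (SD, n = 3) for flox and 11.1 ± 1.30 for ΔIEC mice, and in tumours of 19.0 ± 1.73 and 11.3 ± 1.39. Its ΔIEC libraries lay below the flox libraries in each tissue. The file holds no counts, so sequencing depth is unknown. Summed FPKM ran from 534806 to 821487 per library and was lower in flox tumours than in adjacent tissue. Antigen receptor segments took 0.388% to 20.5% of it, with the highest shares in DT3 (20.5%) and DA2 (12.7%). The epithelial markers were present in every library: the 12 markers together reached 7345 to 12583 FPKM in adjacent tissue and 5241 to 7505 in tumours. Slc25a4 is abundant in skeletal muscle, and the 6 markers of that tissue summed to 2.77 to 9.11 FPKM in adjacent and 2.46 to 3.81 in tumour libraries. Adipocyte markers summed to 4.71 to 20.3 FPKM.

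Slc25a4 and Slc25a5 encode the main pair of adenine nucleotide translocases and moved in opposite directions in tumours, so the start of both coding sequences is shown to illustrate how far reads can tell them apart. Both stretches are the first 90 coding bases in exon 1 of GENCODE M21 on GRCm38, read 5′ to 3′, with Slc25a4 at chr8:46210833-46210922 on the minus strand and Slc25a5 at chrX:36795731-36795820 on the plus strand. Capitals mark the 24 positions at which the 2 genes differ.
Slc25a4: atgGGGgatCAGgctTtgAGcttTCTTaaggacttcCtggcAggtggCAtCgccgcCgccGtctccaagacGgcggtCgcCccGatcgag
Slc25a5: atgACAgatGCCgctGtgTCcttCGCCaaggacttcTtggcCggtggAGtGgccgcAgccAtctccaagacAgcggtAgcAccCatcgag
Over the whole coding sequence of 894 bases the 2 genes were identical at 692 positions (77.4%), and their longest identical run was 20 bases.

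Promoter sequence is shown for 3 members that moved in both tumour contrasts and whose window holds no exon of the gene: Slc25a34, with the largest fall, Slc25a5, the most abundant member, which fell, and Slc25a30, which rose. Each is the 250 bases before the RefSeq start site on GRCm38.p6, in the direction of the gene: chr4:141623835-141624084 on the minus strand for Slc25a34, chrX:36795347-36795596 on the plus strand for Slc25a5 and chr14:75787038-75787287 on the minus strand for Slc25a30. Capitals mark a match to AAGGTCA, a nuclear receptor half-site, or to its reverse complement TGACCTT.
Slc25a34: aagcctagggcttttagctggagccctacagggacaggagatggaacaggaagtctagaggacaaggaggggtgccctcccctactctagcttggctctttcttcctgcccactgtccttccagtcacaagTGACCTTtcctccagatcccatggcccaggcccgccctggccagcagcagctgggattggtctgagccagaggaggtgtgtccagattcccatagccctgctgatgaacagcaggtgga
Slc25a5: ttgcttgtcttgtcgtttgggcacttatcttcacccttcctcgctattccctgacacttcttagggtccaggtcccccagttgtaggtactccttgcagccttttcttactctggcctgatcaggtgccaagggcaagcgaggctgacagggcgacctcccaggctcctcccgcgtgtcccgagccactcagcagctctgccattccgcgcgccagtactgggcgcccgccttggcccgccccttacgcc
Slc25a30: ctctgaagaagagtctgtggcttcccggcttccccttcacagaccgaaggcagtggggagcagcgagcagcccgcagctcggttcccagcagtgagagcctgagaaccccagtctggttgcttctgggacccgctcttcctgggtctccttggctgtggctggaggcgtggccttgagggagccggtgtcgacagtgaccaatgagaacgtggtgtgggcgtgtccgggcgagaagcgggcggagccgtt
The match in Slc25a34 begins 119 bases before the start site. Among 32851 RefSeq windows of this length, 4.08% held the half-site on either strand, and among 36 members with a window Slc25a34 was the only one. The E-box CACGTG lay in 6.02% of all windows and in those of 7 members (Slc25a1, Slc25a13, Slc25a14, Slc25a15, Slc25a31, Slc25a33 and Slc25a36). The letters TATAAA lay in 12.4% of all windows and in those of Slc25a18 and Slc25a21, and the NRF1 palindrome in 0.782% and in no member. All were searched on both strands, and none contains another. A match is a string of letters and was not tested as a site.

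Tumours were compared with adjacent tissue in each genotype, which asks how the carriers differ in the tumour. More carriers were lower than higher. In flox mice 19 of the 40 tested members (47.5%) fell and 3 (7.5%) rose, at a limma adjusted p below 0.05 over 16970 genes; the background was 19.7% of all genes tested lower and 16.6% higher. In ΔIEC mice 14 of 40 (35.0%) fell and 3 (7.5%) rose, beside 15.5% of all genes lower and 13.9% higher. This background holds genes of all types and levels. With the filter at an FPKM of 5, 2902 of 11251 genes were lower in flox and 2285 in ΔIEC tumours, a larger share. The median difference of the tested members was -0.31 in flox and -0.35 in ΔIEC tumours, beside -0.01 and -0.03 for all genes. Differences are of mean log2(FPKM + 1), a scale on which low genes change less than their FPKM does. Of the members, 13 fell in both genotypes, and Slc25a4, Slc25a27 and Slc25a30 rose in both. A further 6 fell in flox mice alone by this test (Slc25a11, Slc25a20, Slc25a24, Slc25a36, Slc25a39 and Slc25a46), 1 in ΔIEC mice alone, and 17 were called in neither. The difference between genotypes was tested as an interaction and called for no member, so these 7 are not shown to differ between them. Without DA2 and DT3, the libraries rich in antigen receptor transcripts, 18 fell and 3 rose in flox mice, and 10 fell and 3 rose in ΔIEC mice.

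**Figure D1:**
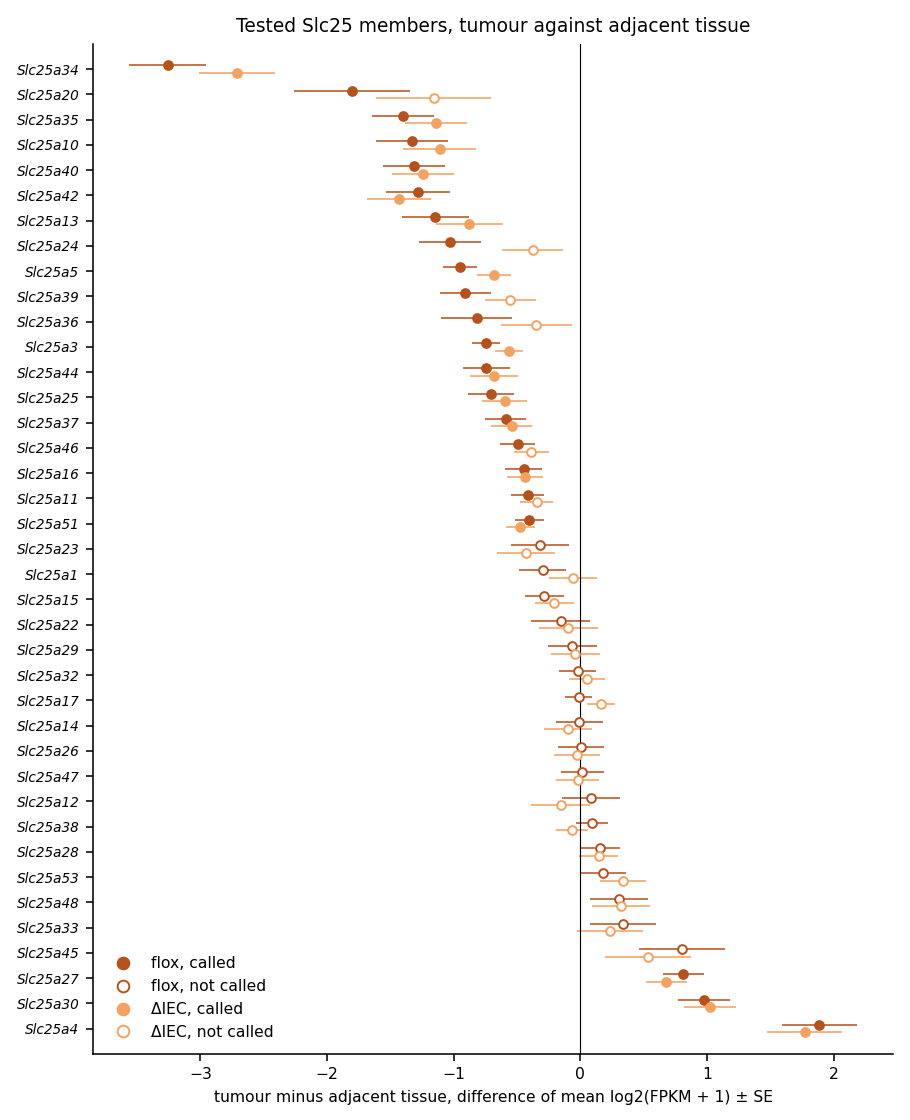
Difference of mean log2(FPKM + 1) between tumour and adjacent tissue for the tested members, 1 of them not shown, sorted by the flox value (dark points, flox; light points, ΔIEC; bars, SE). Filled points passed the limma test; Slc25a34 lies lowest at -3.26 and -2.71 and Slc25a4 highest at 1.89 and 1.77.

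The direction of the family depends on the scale. Nuclear protein-coding genes were rescaled to a common total in each library, and all genes on that scale means the 13398 of them that were tested. Their median was 0.37 in flox and 0.25 in ΔIEC tumours. The deposited medians are over 16970 genes of all types, so scale and gene set both changed. The median of the carriers moved to 0.06 and -0.06, still below that of all genes. On that scale 11 carriers fell and 8 rose in flox mice, beside 11.5% of genes lower and 42.6% higher. In ΔIEC mice 7 fell and 4 rose, beside 9.76% lower and 30.7% higher. All 11 and all 7 falls were among those called on the deposited scale, and Slc25a4, Slc25a27 and Slc25a30 rose on both scales in both genotypes. Slc25a3 and Slc25a5 still fell in flox mice, and Slc25a5 in ΔIEC mice. The members that lost their call in flox mice were Slc25a11, Slc25a16, Slc25a25, Slc25a36, Slc25a37, Slc25a44, Slc25a46 and Slc25a51; in ΔIEC mice they included Slc25a3, Slc25a16, Slc25a25, Slc25a37, Slc25a44 and Slc25a51. Those called higher on the rescaled values only were Slc25a17, Slc25a28, Slc25a33, Slc25a38 and Slc25a45 in flox and Slc25a17 in ΔIEC mice.

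**Figure D2:**
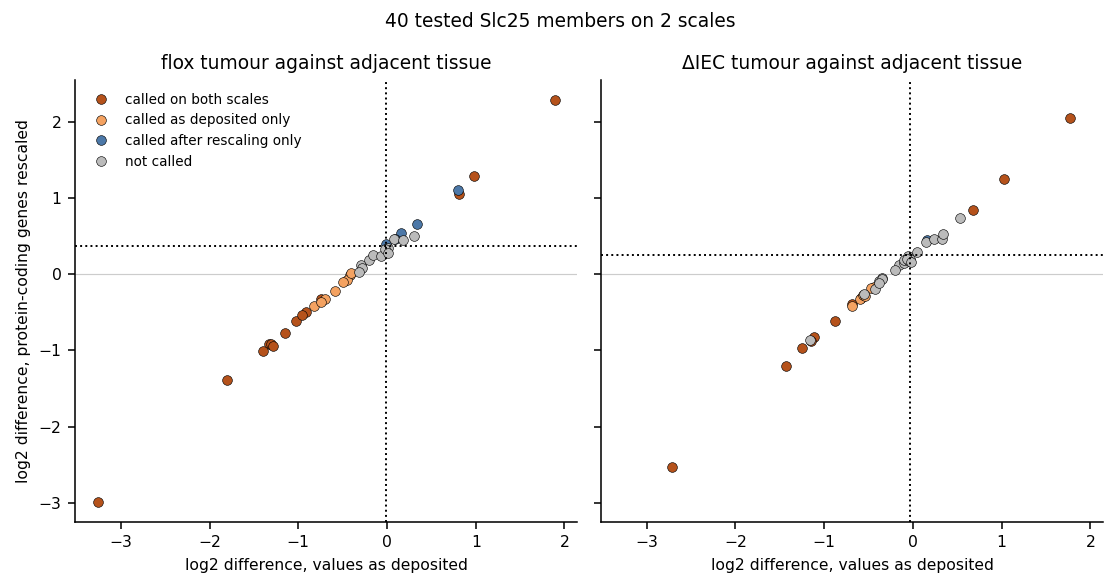
Log2 difference between tumour and adjacent tissue for the 40 tested members with values as deposited (horizontal) and after rescaling (vertical). Dotted lines are the medians of all genes tested on each scale, which are different gene sets. Points are coloured by whether the member passed the test on both scales, on 1 or on none; each member's difference is higher after rescaling, as is the all-gene median (0.37 in flox, 0.25 in ΔIEC).

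Markers of cell types were read in the same contrasts. The background as deposited was 19.7% and 15.5% of all genes lower and 16.6% and 13.9% higher, in flox and ΔIEC tumours. On the rescaled values it was 11.5% and 9.76% lower and 42.6% and 30.7% higher. Of 12 epithelial markers, 10 fell and 1 (Cldn4) rose in flox tumours (median difference -0.72), and 4 fell and 1 rose in ΔIEC tumours (median -0.38). On the rescaled values 5 fell and 1 rose in flox tumours, and 3 fell and 2 rose in ΔIEC tumours (medians -0.30 and -0.08). Of 10 smooth muscle markers, 1 fell in flox tumours and 0 were called in ΔIEC tumours, and 0 were called in either on the rescaled values. Of 12 fibroblast markers, 7 rose in flox and 2 in ΔIEC tumours (8 and 6 rescaled), with a summed level of 77.98 to 429.9 FPKM in adjacent tissue and 544 to 899 in tumours. Of 6 endothelial markers, 3 rose in flox tumours and 0 in ΔIEC tumours (3 and 1 rescaled), and 3 of 10 leukocyte markers rose in each (5 and 4 rescaled), among them S100a8 and S100a9. The part of these shifts in the carriers' differences was not tested, and in bulk tissue fewer cells of a type and less RNA per cell cannot be told apart.

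As a share of nuclear protein-coding FPKM, the 47 members together took 0.398%, 0.431% and 0.442% in flox adjacent tissue and 0.409%, 0.371% and 0.410% in ΔIEC adjacent tissue. The shares were 0.313%, 0.327% and 0.332% in flox tumours and 0.325%, 0.330% and 0.333% in ΔIEC tumours. Each tumour library lay below each adjacent library. Slc25a5 and Slc25a3 supplied 55.8% to 64.6% of the family's FPKM in each library, so the family total follows them. Without them, the share of the remaining members was 0.141% to 0.186% in adjacent tissue and 0.136% to 0.141% in tumours, and the lowest adjacent library (FA1, 0.141%) met the highest tumour library (DT2, 0.141%).

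**Figure D3:**
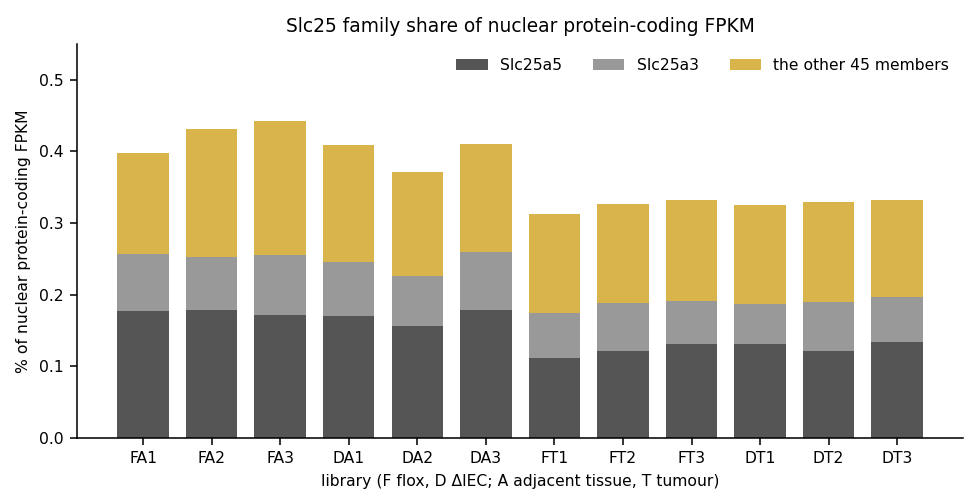
Share of nuclear protein-coding FPKM taken by the Slc25 members in each of the 12 libraries, stacked as Slc25a5, Slc25a3 and the remaining members. Adjacent libraries lie between 0.371% and 0.442% and tumour libraries between 0.313% and 0.333%.

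Among the carriers of adenine nucleotides and phosphate, 5 of 7 tested members fell and 1 rose in flox tumours (median -0.75). In ΔIEC tumours 4 fell and 1 rose (median -0.56). The background was 19.7% and 15.5% of all genes lower and 16.6% and 13.9% higher. On the rescaled values 4 and 2 fell and 1 rose in each, beside 11.5% and 9.76% of all genes lower and 42.6% and 30.7% higher. Slc25a5 (ENSMUSG00000016319, chrX:36795651-36798807), the adenine nucleotide translocase of dividing and epithelial cells, was the most abundant member. It stood at 797, 906 and 814 FPKM in flox adjacent tissue, 873, 663 and 761 in ΔIEC adjacent tissue, 386, 426 and 492 in flox tumours and 494, 426 and 506 in ΔIEC tumours. Every tumour library was below every adjacent library. The difference was -0.95 (SE 0.133, limma adjusted p = 0.000760) in flox and -0.68 (SE 0.133, adjusted p = 0.00510) in ΔIEC mice. Slc25a4 (chr8:46206797-46211284), the translocase best known from heart and skeletal muscle, went the other way. Its FPKM was 6.05, 9.20 and 9.87 in flox and 7.09, 13.6 and 8.71 in ΔIEC adjacent tissue, against 36.1, 26.4 and 37.9 in flox and 52.6, 27.1 and 29.3 in ΔIEC tumours. All 6 tumour libraries lay above all 6 adjacent libraries, with differences of 1.89 (SE 0.295, adjusted p = 0.00121) and 1.77 (SE 0.295, adjusted p = 0.00267). Its protein-coding transcript held 95.1% of the gene's FPKM. Slc25a31, a further translocase known from testis, was at 0.178 FPKM or less throughout.

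Slc25a3 (chr10:91116574-91124059), the phosphate carrier, was the second most abundant member. It was at 365, 381 and 396 FPKM in flox adjacent tissue, 389.7, 293 and 342 in ΔIEC adjacent tissue, 216, 235 and 229 in flox tumours and 215, 236 and 237 in ΔIEC tumours. The groups of tumour and adjacent tissue did not overlap, and the tumour libraries lay within a narrow range. Its differences were -0.75 (SE 0.110, adjusted p = 0.000967) and -0.56 (SE 0.110, adjusted p = 0.00517). A small nucleolar RNA gene, Gm24119, lies inside Slc25a3 on the same strand and was listed at a mean of 109 FPKM, and how reads were divided between host and small RNA is not stated.

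The ATP-Mg/phosphate carriers, which adjust the adenine nucleotide pool of the matrix in answer to calcium, were led by Slc25a24. It was at 55.3, 105 and 94.3 FPKM in flox and 75.7, 50.6 and 45.3 in ΔIEC adjacent tissue, and at 41.0, 35.6 and 42.6 in flox and 42.1, 39.1 and 47.3 in ΔIEC tumours. It fell in flox mice (-1.03, adjusted p = 0.00914). In ΔIEC mice, where the adjacent level was lower and DA3 overlapped the tumours, the difference was -0.38 (adjusted p = 0.266). Slc25a25 fell in both (-0.70 and -0.60, adjusted p = 0.0126 and 0.0309), from 11.1 to 18.1 FPKM in adjacent tissue to 6.92 to 9.91 in tumours; its ΔIEC call was lost when DA1, DT1 or DT2 was left out (adjusted p 0.0729 to 0.107). Slc25a23 was at 2.45 to 6.51 FPKM with differences of -0.32 and -0.43 and was not called. Slc25a42, which carries coenzyme A and adenine nucleotides, fell from 6.59, 9.12 and 9.62 FPKM to 2.55, 3.91 and 2.24 in flox mice and from 10.3, 6.29 and 7.10 to 1.38, 2.37 and 3.21 in ΔIEC mice. The tissues did not overlap in either genotype (-1.28, adjusted p = 0.00401, and -1.43, adjusted p = 0.00356). Slc25a41 was at 0.0917 FPKM or less and Slc25a43 at 0.601 or less, and neither was tested.

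**Figure D4:**
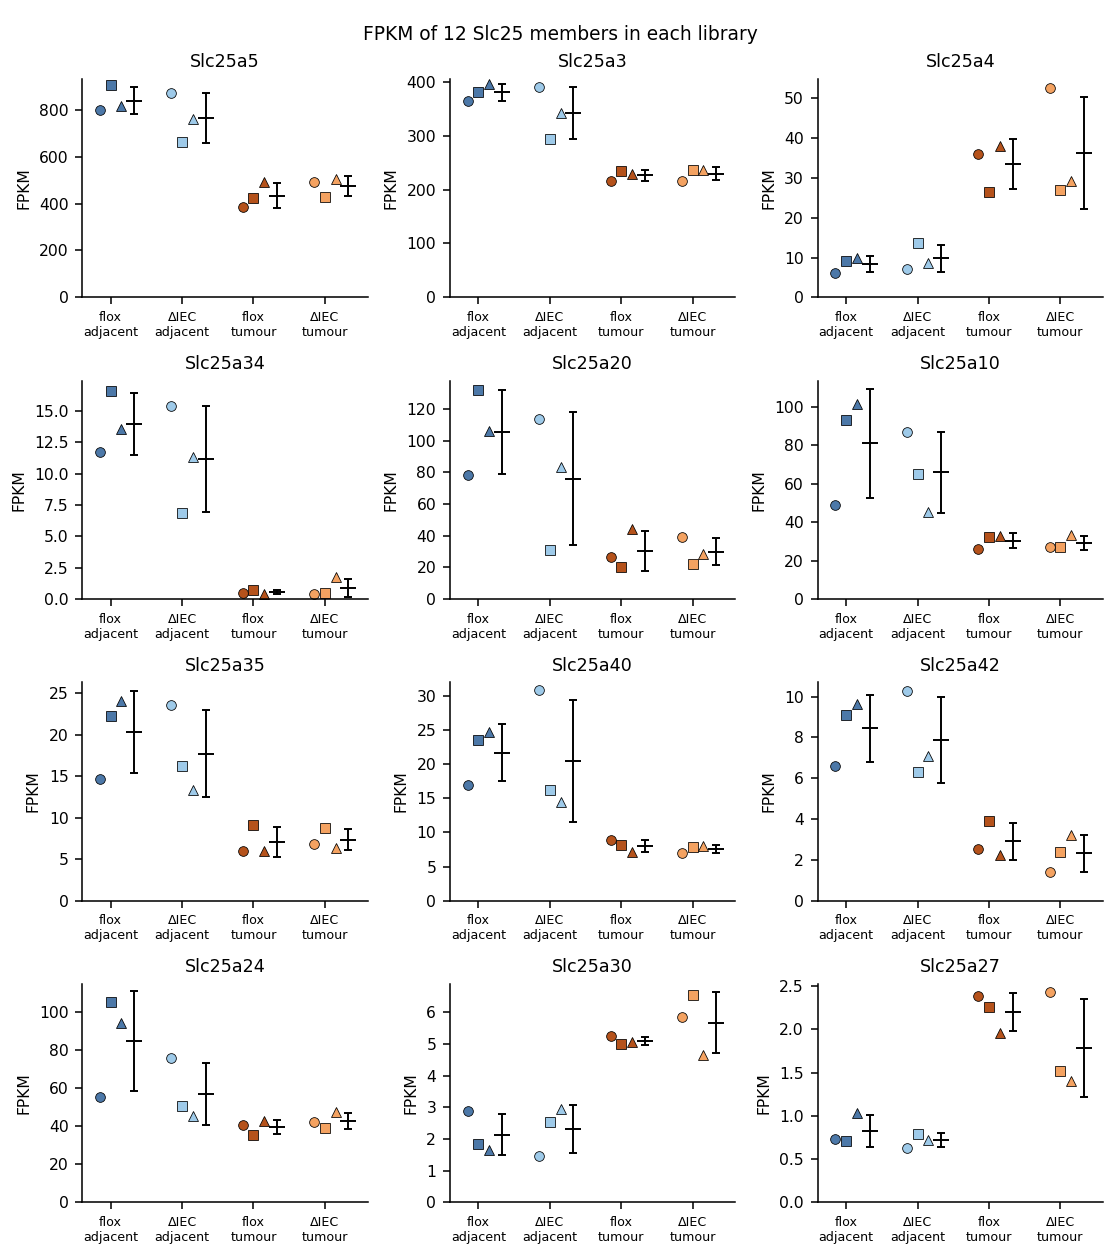
FPKM of 12 members by library, drawn as a circle for replicate 1, a square for 2 and a triangle for 3; black bars give group mean and SD (n = 3), and each vertical axis starts at 0. Slc25a4, Slc25a27 and Slc25a30 are higher in tumours, and the other 9 are lower in flox tumours than in flox adjacent tissue.

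Of the 5 tested members that carry di- and tricarboxylates and keto acids or resemble such carriers, 4 fell in flox and 3 in ΔIEC tumours, and none rose (medians -1.33 and -1.11, and -0.92 and -0.82 rescaled). The background was 19.7% and 15.5% of all genes lower and 16.6% and 13.9% higher as deposited. Slc25a34 (ENSMUSG00000040740, chr4:141618824-141623821), a carrier of unsettled substrate close to the oxaloacetate carriers of yeast, had the largest difference of the family. It was at 11.7, 16.6 and 13.6 FPKM in flox and 15.4, 6.87 and 11.3 in ΔIEC adjacent tissue. Tumours held 0.492, 0.738 and 0.434 FPKM in flox and 0.421, 0.460 and 1.72 in ΔIEC mice. The lowest adjacent library (DA2, 6.87) was well above the highest tumour library (DT3, 1.72), with differences of -3.26 (SE 0.303, adjusted p = 0.000291) and -2.71 (SE 0.303, adjusted p = 0.000798). It passed the filter through its adjacent libraries, since every tumour library but DT3 was below an FPKM of 1. DA2 and DT3, its lowest adjacent and highest tumour library, are also the 2 libraries richest in antigen receptor transcripts, and without them the ΔIEC difference was -3.30 (adjusted p = 0.00037). Slc25a35, its close relative, fell from 14.7, 22.3 and 24.1 to 5.99, 9.14 and 6.05 FPKM in flox mice and from 23.6, 16.3 and 13.3 to 6.87, 8.78 and 6.37 in ΔIEC mice (-1.40, adjusted p = 0.00213, and -1.14, adjusted p = 0.00776). The tissues did not overlap. Rangrf overlaps it on the opposite strand at a mean of 13.8 FPKM, and whether the authors counted by strand is not given in the sources used here.

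Slc25a10, the dicarboxylate carrier that exchanges malate or succinate for phosphate, was at 48.7, 93.4 and 101 FPKM in flox and 87.0, 65.2 and 45.3 in ΔIEC adjacent tissue. In tumours it was at 25.8, 32.4 and 32.7 in flox and 27.0, 26.9 and 33.3 in ΔIEC mice, below every adjacent library. It fell by 1.33 (adjusted p = 0.00599) and by 1.11 (adjusted p = 0.0169) on the log2 scale; the ΔIEC call was lost without DA1, DT1 or DT2 (adjusted p 0.0525 to 0.0608). Slc25a11, which exchanges oxoglutarate for malate in the malate-aspartate shuttle, fell in flox mice only just past the threshold (-0.42, adjusted p = 0.0308) with 1 overlap of libraries (FA1 34.8, FT3 34.9). That call was lost without FA2, FA3, FT1 or FT2 (adjusted p 0.0805 to 0.119), and in ΔIEC mice the difference was -0.34 (adjusted p = 0.0710). Slc25a1, which exports citrate for lipid synthesis, was at 40.1 to 64.0 FPKM and was called in neither genotype (-0.30 and -0.06). Slc25a21 was listed above 0 in FA1 and DA2 alone, at 0.0417 and 0.0395 FPKM.

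Among 11 tested carriers of amino acids and carnitine, 3 fell in flox and 2 in ΔIEC tumours and none rose, with medians of -0.07 and -0.10. These falls lie near the background of 19.7% and 15.5% of all genes lower, with medians of -0.01 and -0.03. On the rescaled values the medians of these carriers were 0.25 and 0.16, below those of all genes (0.37 and 0.25). There 2 fell and 2 rose in flox tumours, and 1 fell and 0 rose in ΔIEC tumours. Of all genes, 11.5% and 9.76% were lower and 42.6% and 30.7% higher on that scale. Slc25a20, the carnitine-acylcarnitine carrier that admits long-chain fatty acids for oxidation, was at 78.4, 132 and 106 FPKM in flox and 114, 30.7 and 83.5 in ΔIEC adjacent tissue, and at 26.9, 20.1 and 44.4 in flox and 39.4, 22.4 and 28.2 in ΔIEC tumours. It fell in flox mice (-1.80, SE 0.456, adjusted p = 0.0126), a call that was lost without FA2 (adjusted p = 0.0512). In ΔIEC mice DA2, at 30.7, lay among the tumours, and the difference of -1.16 missed the threshold (adjusted p = 0.0807). Slc25a13, the calcium-regulated aspartate/glutamate carrier citrin, fell in both: from 11.2, 19.2 and 18.6 to 7.61, 4.94 and 7.72 FPKM in flox mice (-1.15, adjusted p = 0.00809), and from 17.6, 11.7 and 11.4 to 7.05, 4.996 and 8.79 in ΔIEC mice (-0.88, adjusted p = 0.0315). The ΔIEC call was lost without DA1, DT1 or DT2 (adjusted p 0.0758 to 0.109). Slc25a13 lost its call in both genotypes with the highest transcript of each gene in place of the sum. Slc25a44, a carrier of branched-chain amino acids, went from 9.67, 14.6 and 16.6 to 7.504, 7.64 and 7.54 FPKM in flox mice (-0.74, adjusted p = 0.0121) and from 15.1, 11.8 and 9.84 to 6.83, 7.07 and 7.53 in ΔIEC mice (-0.68, adjusted p = 0.0216). It lost its flox call without FA2 (adjusted p = 0.0502) and its ΔIEC call without DA1, DT1 or DT2 (0.0564 to 0.0769).

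The remaining carriers of this group passed the test in neither genotype. Slc25a12, the citrin relative aralar, had differences of 0.08 and -0.15, the glutamate carrier Slc25a22 of -0.15 and -0.10, and the ornithine carrier Slc25a15 of -0.28 and -0.21. The glycine carrier Slc25a38, needed for haem synthesis, was at 6.05 to 8.70 FPKM in all 12 libraries. Slc25a29, Slc25a47 and Slc25a48 stayed within 0.257 and 3.34 FPKM with absolute differences of 0.32 or less. Slc25a45 had values of 2.37, 1.54 and 1.69 in flox adjacent tissue and 3.98, 3.87 and 4.06 in flox tumours without overlap, but its difference of 0.80 missed the threshold (adjusted p = 0.0872); in ΔIEC adjacent tissue it ranged from 0.740 to 4.06. Slc25a2 and Slc25a18 did not reach the level for testing, at most 0.616 and 1.44 FPKM.

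Of 10 carriers of nucleotides, cofactors and glutathione, 5 fell in flox and 4 in ΔIEC tumours and none rose (medians -0.30 and -0.39). The background of falls as deposited was 19.7% and 15.5% of all genes. On the rescaled values 2 fell and 2 rose in flox tumours, and 1 fell and 1 rose in ΔIEC tumours. The medians there were 0.09 and -0.12, beside 0.37 and 0.25 for all genes. Of all genes, 11.5% and 9.76% were lower and 42.6% and 30.7% higher on that scale. Slc25a39 and Slc25a40, which bring glutathione into mitochondria, belong to this group. Slc25a39 was at 61.1, 91.6 and 94.2 FPKM in flox and 84.2, 71.1 and 61.0 in ΔIEC adjacent tissue, and at 32.9, 47.0 and 49.9 in flox and 48.8, 50.3 and 46.1 in ΔIEC tumours. No tumour library reached an adjacent one, and it fell in flox mice (-0.91, adjusted p = 0.00669), while the ΔIEC difference was -0.55 (adjusted p = 0.0615). Slc25a40 fell in both, from 16.9, 23.5 and 24.7 to 8.88, 8.18 and 7.14 FPKM in flox mice (-1.31, adjusted p = 0.00288) and from 30.8, 16.2 and 14.5 to 6.99, 7.85 and 8.02 in ΔIEC mice (-1.24, adjusted p = 0.00530). Its most abundant transcript in the table is a retained intron with 25.6% of the gene's FPKM, and the most abundant protein-coding one went from 5.22 ± 2.15 FPKM (SD, n = 3) to 1.12 ± 0.241 in flox mice.

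Slc25a36, a pyrimidine nucleotide carrier, fell in flox mice (-0.82, adjusted p = 0.0411), where FA1 stood apart at 48.2 FPKM beside 23.8 and 29.4. Leaving out FA1, FA3, FT1, FT2 or FT3 ended that call (adjusted p 0.0694 to 0.125), and in ΔIEC mice the groups overlapped (-0.35, adjusted p = 0.372). Slc25a51, which imports NAD+, fell by 0.40 and 0.47 on the log2 scale (adjusted p = 0.0209 and 0.0127), with tumours at 30.3 to 38.1 FPKM below adjacent tissue at 39.2 to 50.04; on the rescaled values its differences were 0.00886 (adjusted p = 0.954) and -0.19 (adjusted p = 0.223). Its flox call was lost without FA2, FA3, FT2 or FT3 (adjusted p 0.0633 to 0.0839). Slc25a16 fell by 0.45 and 0.44 (adjusted p = 0.0345 and 0.0444) from 8.18 to 10.9 FPKM to 5.98 to 7.93; its flox call was lost without FA2, FA3, FT2 or FT3 (0.0611 to 0.120) and its ΔIEC call without any of 8 libraries (0.0528 to 0.140). Slc25a17 (peroxisomal), Slc25a26 (S-adenosylmethionine), Slc25a32 (folate and FAD) and Slc25a33 (pyrimidine nucleotides) had absolute differences of 0.34 or less in both genotypes and were not called.

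Of the 3 uncoupling-protein-like members 2 rose in each genotype and none fell, on the deposited and on the rescaled values. The background of rises was 16.6% and 13.9% of all genes as deposited, and 42.6% and 30.7% on the rescaled values. Slc25a30, known from kidney, was at 2.90, 1.86 and 1.67 FPKM in flox and 1.48, 2.53 and 2.96 in ΔIEC adjacent tissue, and at 5.25, 4.99 and 5.07 in flox and 5.86, 6.54 and 4.64 in ΔIEC tumours. The tissues did not overlap, with differences of 0.98 (SE 0.205, adjusted p = 0.00515) and 1.02 (SE 0.205, adjusted p = 0.00572). Slc25a27, also called UCP4 and known from brain, was low throughout. It was at 0.739, 0.705 and 1.03 FPKM in flox and 0.632, 0.792 and 0.727 in ΔIEC adjacent tissue and rose to 2.39, 2.26 and 1.96 in flox and 2.43, 1.52 and 1.40 in ΔIEC tumours (0.81, adjusted p = 0.00386, and 0.68, adjusted p = 0.0115). It had passed the filter through its tumour libraries. Slc25a14 was at 3.02 to 5.14 FPKM in all libraries, with differences of -0.01 and -0.10.

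Of the mitoferrins, which bring iron in for haem and iron-sulphur clusters, Slc25a37 fell by 0.59 and 0.54 on the log2 scale (adjusted p = 0.0179 and 0.0306), and Slc25a28 was not called (0.16 and 0.14). Slc25a37 was at 7.52, 9.17 and 12.5 FPKM in flox and 9.67, 9.85 and 8.70 in ΔIEC adjacent tissue, and at 5.46 to 6.83 in the tumours, without overlap. Its flox call was lost without FA3, FT1 or FT3 (adjusted p 0.0542 to 0.0611) and its ΔIEC call without DA1, DA2, DT1 or DT2 (0.0665 to 0.104). Of its FPKM, 73.9% belonged to a retained-intron transcript. Slc25a46, an outer membrane protein that shapes mitochondria, fell in flox mice (-0.49, adjusted p = 0.0184), a call lost without FA2, FA3, FT2 or FT3 (0.0503 to 0.0777). In ΔIEC mice its difference was -0.39 (adjusted p = 0.0565). Slc25a53, with no settled substrate, was at 0.981 to 2.76 FPKM and was not called, and Slc25a54 was at 0.0612 FPKM or less.

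Within a library, close relatives can be compared as a share of their summed FPKM, which no common scaling changes. Slc25a4 made up 0.753%, 1.01% and 1.20% of Slc25a4 plus Slc25a5 in flox and 0.805%, 2.01% and 1.13% in ΔIEC adjacent tissue, and 8.56%, 5.84% and 7.16% in flox and 9.62%, 5.98% and 5.47% in ΔIEC tumours. The lowest tumour share was above the highest adjacent share. These shares restate the opposite directions of both genes, and Slc25a5 was the larger partner in every library. Slc25a12 made up 53.3%, 26.2% and 24.5% of Slc25a12 plus Slc25a13 in flox adjacent tissue and 52.9%, 60.7% and 56.4% in flox tumours, so FA1 lay within the tumour range. In ΔIEC mice the shares were 40.7%, 47.5% and 54.7% in adjacent tissue and 57.4%, 67.2% and 59.1% in tumours, without overlap. These are shares of all transcripts. Of the FPKM of Slc25a12, 60.0% belonged to a transcript labelled as nonsense-mediated decay and 18.05% to its most abundant protein-coding one. Slc25a13 was led by a protein-coding transcript with 58.4%. That transcript was at 5.43, 13.6 and 5.43 FPKM in flox adjacent tissue and 4.53, 3.39 and 6.16 in flox tumours, with overlap. Slc25a28 took 46.4% to 63.3% of the mitoferrins in adjacent tissue and 64.5% to 71.8% in tumours, again without overlap. Slc25a39 took 73.2% to 81.4% of the glutathione pair in adjacent tissue and 78.7% to 87.5% in tumours, with FT1 (78.7%) inside the adjacent range.

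**Figure D5:**
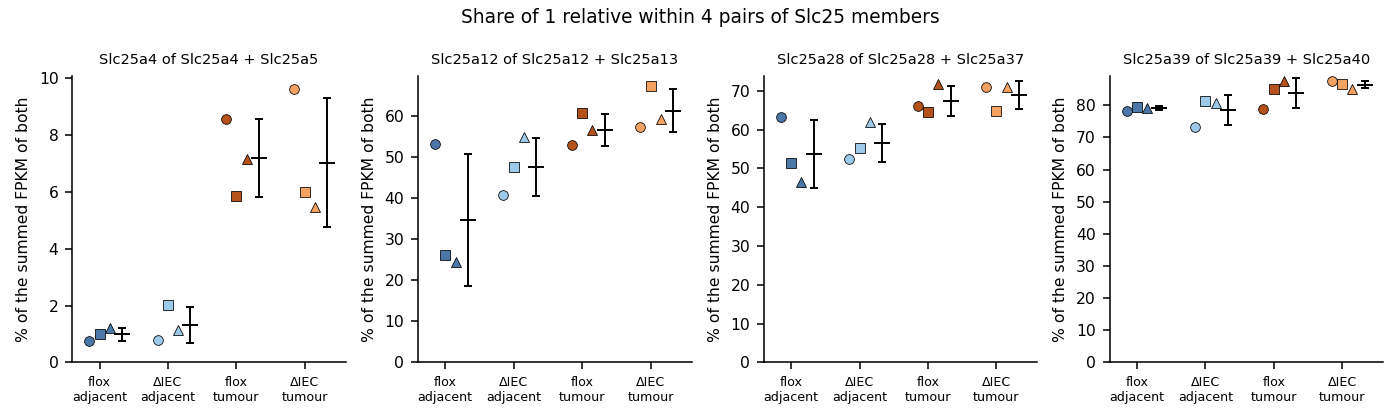
Percent of the summed FPKM of 2 relatives that the first contributes, by library, drawn as a circle for replicate 1, a square for 2 and a triangle for 3; black bars give group mean and SD (n = 3), and axes start at 0. Slc25a4 goes from at most 2.01% of its pair in adjacent tissue to at least 5.47% in tumours.

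The deletion of Synbindin was compared within each tissue, which asks whether the carriers depend on it. No carrier was called in either tissue, and the background was 0% of all genes in adjacent tissue and 0% in tumours. Without DA1, 290 of 16970 genes (1.71%) passed as higher in adjacent tissue of ΔIEC mice and 9 as lower, with 1 of 40 carriers higher, a share near that background. At an unadjusted limma p below 0.05, counted over all genes, there were 3 of 40 carriers and 702 of 16970 genes in adjacent tissue, and 0 carriers and 317 genes in tumours. The median difference of the carriers (ΔIEC minus flox) was -0.11 in adjacent tissue and 0.01 in tumours, beside -0.03 and -0.01 for all genes. Leaving out 1 library moved the adjacent median to between -0.19 (without FA1) and -0.03 (without FA3); it was -0.06 without FA2, -0.06 without DA2 and -0.04 without DA3. Those in adjacent tissue included Slc25a24 (-0.55, SE 0.243) and Slc25a12 (0.52, SE 0.232), both with a limma adjusted p = 0.931. For Slc25a24 the groups overlapped (45.3 to 75.7 in ΔIEC, 55.3 to 105 in flox). Slc25a12 was at 12.8, 6.84 and 6.03 FPKM in flox and 12.1, 10.6 and 13.7 in ΔIEC adjacent tissue, where FA1 lay among the ΔIEC values. Slc25a17, at 21.1, 25.9 and 25.6 FPKM in flox and 20.8, 20.6 and 19.6 in ΔIEC adjacent tissue, did not overlap but was not called (-0.24, SE 0.107, limma adjusted p = 0.931).

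In tumours the smallest p-values belonged to Slc25a53 (0.32, SE 0.181), Slc25a27 (-0.22, SE 0.160) and Slc25a12 (0.28, SE 0.232), with a limma adjusted p = 1.00 for each. Slc25a53 was at 2.12, 1.74 and 1.46 FPKM in flox and 2.76, 2.61 and 2.01 in ΔIEC tumours, with overlap. Slc25a12 was at 8.53, 7.62 and 10.01 in flox and 9.50, 10.3 and 12.7 in ΔIEC tumours, also with overlap. The interaction, which asks whether the tumour difference depends on genotype, called 0 carriers and 0% of all genes, with 0 carriers and 448 genes at an unadjusted p below 0.05. Its smallest p-values included those of Slc25a24 (0.65, SE 0.344) and Slc25a5 (0.27, SE 0.188), each with a limma adjusted p = 1.00. These comparisons share libraries with the tumour contrasts above. A p that misses the threshold does not show that the genotypes are alike: the SE of a single carrier was 0.107 to 0.456 within a tissue and 0.151 to 0.646 for the interaction.

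Related genes outside the name rule were read from 5 lists. Among 5 family proteins under other symbols, the 3 that were tested gave 2 falls in flox and 1 in ΔIEC tumours. Ucp2, a carrier of the uncoupling protein branch, went from 304 ± 34.8 to 185 ± 21.1 FPKM (SD, n = 3) in flox mice (-0.71, adjusted p = 0.00491) and from 281 ± 43.8 to 179 ± 20.9 in ΔIEC mice (-0.65, adjusted p = 0.0100). Mtch2, an outer membrane insertase, fell in flox mice (-0.75, adjusted p = 0.0114). None of these 3 calls held on the rescaled values, where 1 of the 3 tested genes rose in flox and 0 in ΔIEC tumours. Ucp1 and Ucp3 averaged 0.241 FPKM or less in each group. Among other mitochondrial pores and carriers, 11 of 16 tested genes fell in flox and 9 in ΔIEC tumours, and none rose (medians -0.72 and -0.56). The largest were Cpt1a, which makes the acylcarnitines that Slc25a20 carries (-1.82 and -1.18), the outer membrane channel Vdac3 (-1.22 in flox), Cpt2 (-1.07 in flox), Sfxn5 (-1.01 in ΔIEC) and the calcium uniporter Mcu (-0.85 in ΔIEC). On the rescaled values 7 and 6 of these 16 fell. The background of falls in flox and ΔIEC tumours was 19.7% and 15.5% of all genes as deposited, and 11.5% and 9.76% rescaled. Rises were 16.6% and 13.9% as deposited, and 42.6% and 30.7% rescaled.

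The import machinery that inserts carriers into the inner membrane had few calls: of 15 tested genes 1 fell in flox tumours (Tomm7, -0.56), and 2 rose in ΔIEC tumours (Tomm20, 0.77, and Tomm70a, 0.35), beside 13.9% of all genes, with medians of -0.04 and 0.04. On the rescaled values 4 rose in flox and 5 in ΔIEC tumours, and none fell, beside 42.6% and 30.7% of all genes higher. Of 11 enzymes of the malate-aspartate shuttle and citrate metabolism, 6 fell in flox and 4 in ΔIEC tumours, beside 19.7% and 15.5% of all genes. These falls included citrate synthase Cs (-1.33) and oxoglutarate dehydrogenase Ogdh (-1.24) in flox and Ogdh (-1.20) and Cs (-1.06) in ΔIEC mice. Rescaled, 5 and 4 fell and 1 rose in each, beside 11.5% and 9.76% of all genes lower. Of 8 regulators of mitochondrial content, 3 fell and 1 rose in each genotype. The background was 19.7% and 15.5% of all genes lower and 16.6% and 13.9% higher. The falls were Ppara, a receptor that drives fatty acid oxidation genes (11.3 ± 7.95 to 0.711 ± 0.184 FPKM in flox, -2.55; -2.10 in ΔIEC), the coactivator Ppargc1b (27.2 ± 2.86 to 4.33 ± 0.310 in flox, -2.40; -2.37 in ΔIEC) and the nuclear receptor Esrra (-1.10 and -0.92). Ppara averaged below the filter level of 1 FPKM in flox tumours, so it passed the filter through other libraries. Its values in flox adjacent tissue varied widely (SD 7.95 beside a mean of 11.3). Myc rose (1.12 and 1.23). Nrf1, Gabpa, Tfam and Ppargc1a were called in neither genotype, but on the rescaled values Gabpa rose in both (0.64 and 0.77) and Nrf1 in flox mice (0.61).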

How the data were processed

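Libraries were strand-specific TruSeq preparations from total RNA, per the labels' protocols. The submitters' processing notes name FastQC, STAR 2.5, Cuffnorm and GRCm38, with no role or settings. The authors deposited a table of transcripts in units of log2(FPKM + 1). Of its 123062 transcripts, 118004 (95.9%) matched GENCODE M21 on GRCm38; the rest, 4.36% to 7.44% of a library's summed FPKM, were left out. The log was undone and FPKM added up by gene (48448 genes). FPKM carries no read depth, so no count model or counting interval was used.

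limma 3.58.1 in R 4.3.3 (lmFit and eBayes with trend and robust, 8 residual degrees of freedom) was fitted to log2(FPKM + 1), a pseudocount of 1, over the 16970 genes for which 3 or more libraries had an FPKM of 1 or above. Calls are at 0.05 after Benjamini-Hochberg adjustment of two-sided p over all genes of the contrast. Unadjusted p-values are also limma's. The 5 contrasts were genotype within each tissue, tissue within each genotype, and the interaction. Overlap of libraries, where given, is of FPKM.

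The members, the gene lists and the motifs were chosen with earlier results of these data known. Per-library values are given for the called carriers with the largest differences (up to 8 in each direction per contrast), the 3 smallest p where a contrast called none, the 6 most abundant carriers and 4 pairs of relatives; some further carriers were given in full beside their group. From other lists up to 3 called genes per tumour contrast were named, and a few more after their values were seen. Alternatives were a pseudocount of 0.1, no filter or an FPKM of 5, quantile normalization, median centring, rescaled protein-coding genes, a fit of only 2 groups, plain eBayes, replicate blocks, the highest transcript in place of the sum, and omission of 1 library at a time. Sex as a covariate and omission of DA2 with DT3 were added after the data had been seen. Sex was inferred from expression: a library was taken as female where Xist exceeded the sum of Ddx3y, Eif2s3y, Kdm5d and Uty. By this rule 6 of the 12 libraries were female. The rescaled values cover 13398 tested nuclear protein-coding genes without antigen receptor segments. Promoters are from RefSeq (GRCm38.p6), which had a window for 36 members. Results of a few genes, 1 carrier among them, are not reported here by name, though they stay in the counts.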

Additional observations from a re-analysis of the deposited data

How the results depend on the processing

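No setting reversed a called carrier apart from Slc25a51, whose flox difference was 0.00886 with protein-coding genes rescaled (adjusted p = 0.954). Of the calls, 11 of 22 in flox and 1 of 17 in ΔIEC tumours (Slc25a34) were kept in each of the alternatives run. Rescaling gave 8 higher and 11 lower carriers in flox tumours and 7 lower in ΔIEC tumours. The medians of the tested carriers were then 0.0593 in flox, -0.0597 in ΔIEC and -0.0504 for the interaction. They were -0.20 and -0.19 without a filter and -0.21 and -0.19 with quantile normalization in flox and ΔIEC tumours, and -0.49 in flox tumours with a filter at an FPKM of 5. The filter changes which carriers are tested. For the other shifts the cause was not tested. Leaving out 1 library at a time gave 13 to 19 lower and 3 to 4 higher carriers in flox tumours, with medians from -0.49 (without FA1) to -0.25. In ΔIEC tumours it gave 7 to 17 lower and 3 higher carriers, with medians from -0.37 to -0.23 (without DA1). The count there was 8 without DA1, 8 without DT1 and 7 without DT2. In adjacent tissue 0 to 1 carriers were higher by genotype (1 without DA1, where 1.71% of all genes were), and the interaction median ran from 0.000904 to 0.18 (without FA1). Without DA2 and DT3 there were 3 higher and 18 lower carriers in flox and 3 and 10 in ΔIEC tumours, and with sex as a covariate 3 and 18, and 3 and 14.

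Flox libraries share a description code between tissues, as do 2 ΔIEC pairs, but the labels do not say that it marks an animal. For that reason the main fit did not take the codes as pairs. Deviations of same-coded libraries correlated at 0.05, -0.19, 0.10, 0.05 and 0.17. Libraries of other codes with the same title number ran from -0.40 (FA1 and DA1) to 0.19 (DA1 and DT1). With 3 libraries per group, these values cannot decide whether same-coded libraries come from 1 animal. With the title number as a replicate block, 16 carriers were lower and 3 higher in flox, and 12 and 3 in ΔIEC tumours. With the code as a random replicate block the counts were 19 and 3, and 14 and 3. With the code as a fixed replicate block, which leaves 2 pairs to carry the ΔIEC contrast, they were 14 and 4 in flox, and 1 and 0 in ΔIEC tumours (median -0.19), where 1.87% of all genes were lower and 1.97% higher.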
